A study of Rattus norvegicus with 9 samples.

Results

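Histocompatibility and antigen processing genes were followed on arrays of saphenous artery from spontaneously hypertensive rats (SHR), from Wistar-Kyoto rats made hypertensive with adrenocorticotrophic hormone (ACTH) and from untreated Wistar-Kyoto rats (WKY). The genes were chosen by name. Every probeset whose gene symbol, on the platform annotation or in the study's own tables, began with RT1-, the prefix of the rat major histocompatibility complex (MHC), was taken, together with the probesets of B2m, Cd74, Tap1, Tap2, Tapbp, Psmb8, Psmb9, Psmb10, Psme1 and Psme2. This gave 48 of the 15923 probesets of the array, of which 36 carried an RT1 name and 12 belonged to the 10 other genes. The brightest 57.3% of the 15866 non-control probesets were kept for testing, and 31 of the 48 were among them, 20 of these with an RT1 name.

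The study asked which genes differ in the wall of a muscular artery between a genetic and a hormone-induced hypertension. RNA of the primary branch of the saphenous artery was hybridised to the Affymetrix RAE230A array after 2 rounds of amplification, with 3 arrays for SHR, 3 for ACTH and 3 for WKY, each holding RNA pooled from 2 or 3 male rats of 16 weeks. The ACTH rats were of the WKY strain and had received the hormone under the skin for 4 weeks from the age of 12 weeks, at 0.1 mg/kg per day by the sample labels, whereas the study's methods give another dose. SHR and WKY are inbred strains that differ at many loci besides those linked to blood pressure, and SHR differed from ACTH in strain as well as in the hormone. P-values measured the spread between pools, not between rats.

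Class I molecules consist of a heavy chain of the RT1 complex and the light chain beta-2-microglobulin (B2m), and show peptides from the inside of nearly every nucleated cell to T cells and natural killer cells. Those peptides are cut by the proteasome, whose immune form contains Psmb8, Psmb9 and Psmb10 and is opened by the activator of Psme1 and Psme2, and they are carried into the endoplasmic reticulum by Tap1 and Tap2 and loaded with the help of Tapbp. Class II molecules, made of an alpha and a beta chain (RT1-Ba with RT1-Bb, RT1-Da with RT1-Db1), are carried by the invariant chain Cd74 and shown mainly by macrophages, dendritic cells and B cells. RT1 genes are among the most polymorphic of the rat genome, and their number differs between strains, so that a short array probe can match the transcript of one strain and not that of another.

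The arrays were alike in brightness, with a median signal of 52.3 to 58.1 arbitrary units after the scaling applied by the authors. Smooth muscle markers summed to between 20842 and 23594 units on all 9 arrays and endothelial markers to between 1559 and 2064, so the labelled tissue was present throughout. The GAPDH 3'/5' signal ratio, which rises as RNA degrades, was 3.57 to 5.16 in SHR, 3.67 to 4.52 in ACTH and 4.91 to 5.99 in WKY. By log2 signals WKY replicates 1 and 3 correlated best with WKY replicate 2 (r = 0.96 each, over the kept probesets), and WKY replicate 2 with ACTH replicate 1 (r = 0.96). The arrays were scanned on 4 days, SHR replicates 1 and 2 together with WKY replicate 2, SHR replicate 3 together with the 3 ACTH arrays, and WKY replicates 1 and 3 each on a day of their own.

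Sequences in front of 8 genes described further on are shown here because members of this family are known to share control elements at that position. RefSeq promoters of the rat assembly GRCr8, which is of the Brown Norway strain and therefore neither of WKY nor of SHR, were found by gene identifier for 31 of the 35 member genes and run from 250 bases before to 50 bases after the start. The genes RT1-A, RT1-DMb, RT1-M4 and RT1-CE7 had no entry, and RT1-Aw2 was known from the study's tables by symbol only. The elements searched, on both strands, are in capitals: the kappa B site of class I enhancer A (GGGATTCCC or GGGAATCCC), the core of the interferon response element (AAGTGAAA or TTTCACTT) and the Y box (GATTGG or CCAATC). The following belong to genes with a probeset below every WKY array on all ACTH arrays (RT1-T24-3, which was called, and RT1-S3 and B2m, which were not), to genes with a probeset that set SHR apart from both WKY-strain groups (the class I genes RT1-CE16 and RT1-CE5, the class II chains RT1-Ba and RT1-Bb) and to the immunoproteasome gene Psmb8.
RT1-T24-3: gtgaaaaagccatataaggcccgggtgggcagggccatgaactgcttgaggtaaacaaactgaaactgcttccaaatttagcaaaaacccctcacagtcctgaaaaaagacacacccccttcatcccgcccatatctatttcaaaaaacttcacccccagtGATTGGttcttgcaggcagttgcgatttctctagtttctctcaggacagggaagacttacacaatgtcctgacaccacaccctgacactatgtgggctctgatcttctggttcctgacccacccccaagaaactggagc
RT1-S3: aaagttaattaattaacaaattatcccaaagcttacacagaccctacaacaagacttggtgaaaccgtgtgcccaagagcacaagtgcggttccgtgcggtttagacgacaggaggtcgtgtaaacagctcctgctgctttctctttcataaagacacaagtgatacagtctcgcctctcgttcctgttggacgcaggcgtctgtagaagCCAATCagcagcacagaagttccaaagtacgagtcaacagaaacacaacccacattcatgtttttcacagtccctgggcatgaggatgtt
B2m: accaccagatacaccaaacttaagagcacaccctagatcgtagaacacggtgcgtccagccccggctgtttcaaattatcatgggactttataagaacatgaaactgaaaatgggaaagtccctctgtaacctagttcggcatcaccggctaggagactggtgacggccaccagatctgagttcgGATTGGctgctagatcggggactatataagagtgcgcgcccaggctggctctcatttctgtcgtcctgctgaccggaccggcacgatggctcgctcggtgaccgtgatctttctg
RT1-CE16: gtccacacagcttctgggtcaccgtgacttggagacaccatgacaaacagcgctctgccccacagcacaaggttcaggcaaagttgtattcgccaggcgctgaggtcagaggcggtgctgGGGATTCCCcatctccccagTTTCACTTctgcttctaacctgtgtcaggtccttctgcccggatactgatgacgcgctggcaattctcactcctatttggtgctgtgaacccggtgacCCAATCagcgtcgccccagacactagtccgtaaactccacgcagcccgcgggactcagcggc
RT1-CE5: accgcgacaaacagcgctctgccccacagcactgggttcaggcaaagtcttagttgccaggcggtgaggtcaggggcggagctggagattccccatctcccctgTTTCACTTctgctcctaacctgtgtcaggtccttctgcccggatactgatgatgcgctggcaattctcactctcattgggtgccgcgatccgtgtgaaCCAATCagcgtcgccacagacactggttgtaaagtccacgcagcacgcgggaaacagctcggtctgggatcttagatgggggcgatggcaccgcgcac
RT1-Ba: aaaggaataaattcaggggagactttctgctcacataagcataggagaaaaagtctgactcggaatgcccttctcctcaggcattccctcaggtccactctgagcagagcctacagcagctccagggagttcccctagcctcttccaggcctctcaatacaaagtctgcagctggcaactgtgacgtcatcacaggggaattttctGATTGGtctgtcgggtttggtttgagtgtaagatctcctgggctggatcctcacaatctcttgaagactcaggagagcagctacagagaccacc
RT1-Bb: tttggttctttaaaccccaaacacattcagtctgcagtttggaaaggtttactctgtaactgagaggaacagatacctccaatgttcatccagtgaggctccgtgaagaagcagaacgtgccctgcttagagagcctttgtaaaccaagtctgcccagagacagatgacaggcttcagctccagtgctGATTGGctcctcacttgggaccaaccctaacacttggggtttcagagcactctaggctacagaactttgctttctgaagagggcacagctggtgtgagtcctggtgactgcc
Psmb8: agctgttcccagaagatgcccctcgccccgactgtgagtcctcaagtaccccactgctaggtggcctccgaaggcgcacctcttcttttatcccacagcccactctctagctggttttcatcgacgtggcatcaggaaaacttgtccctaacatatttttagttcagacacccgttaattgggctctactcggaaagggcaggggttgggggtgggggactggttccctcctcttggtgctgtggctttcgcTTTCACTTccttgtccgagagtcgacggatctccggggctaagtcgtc

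These lie on the forward strand of GRCr8 for RT1-T24-3 at chr20:2722875-2723174, RT1-S3 at chr20:2675278-2675577, B2m at chr3:129549080-129549379 and RT1-Ba at chr20:4576807-4577106, and on the reverse strand for RT1-CE16 at chr20:3265394-3265693, RT1-CE5 at chr20:3484041-3484340, RT1-Bb at chr20:4604069-4604368 and Psmb8 at chr20:4656982-4657281. The kappa B site was present in 7 of the 17 promoters of class I genes and B2m, against 0.365% of all 33469 promoters of that length. The interferon core was present in 10 of the same 17 and in 4 of 8 promoters of processing genes, against 1.73% of all promoters. The Y box was present in 5 of 6 promoters of class II genes and Cd74, in 12 of the 17 of class I genes and B2m, and in 1 of the 8 of processing genes. This compares with 14.8% of all promoters, and a GATTGG in any promoter does not by itself mark a Y box that is used. Among the printed sequences only RT1-CE16 held a kappa B site in this spelling. RT1-T24-3, RT1-S3 and B2m, and equally RT1-Ba and RT1-Bb, held a Y box without either of the other elements. Probe sequences were not used here, so the probesets could not be placed on the transcripts.

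In SHR arteries 6 of the 31 kept probesets differed from WKY at an adjusted p under 0.05, against 2.04% of all kept probesets. The 4 higher ones (background 0.967%) were RT1-Ba 1377334_at, RT1-CE16 1370463_x_at, RT1-Aw2 1369110_x_at and RT1-A3 1371213_at, and the 2 lower ones (background 1.08%) were RT1-Aw2 1388071_x_at and RT1-Bb 1371033_at. Against ACTH 8 of the 31 differed (background 3.40%), the 6 higher ones (background 1.57%) being those 4 with Psmb8 and RT1-T24-3, and the 2 lower ones (background 1.82%) RT1-Aw2 1388071_x_at and RT1-Bb. In ACTH arteries 1 of the 31 differed from WKY (background 1.21%), RT1-T24-3, which was lower (background for lower calls 0.659%). By limma none was called higher, against 0.550% of all kept probesets, and at an unadjusted p under 0.05 10 were lower (background 5.59%) and 0 higher (background 6.86%). The 3 comparisons share arrays, so that no call in one of them is independent of the others.

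**Figure D1:**
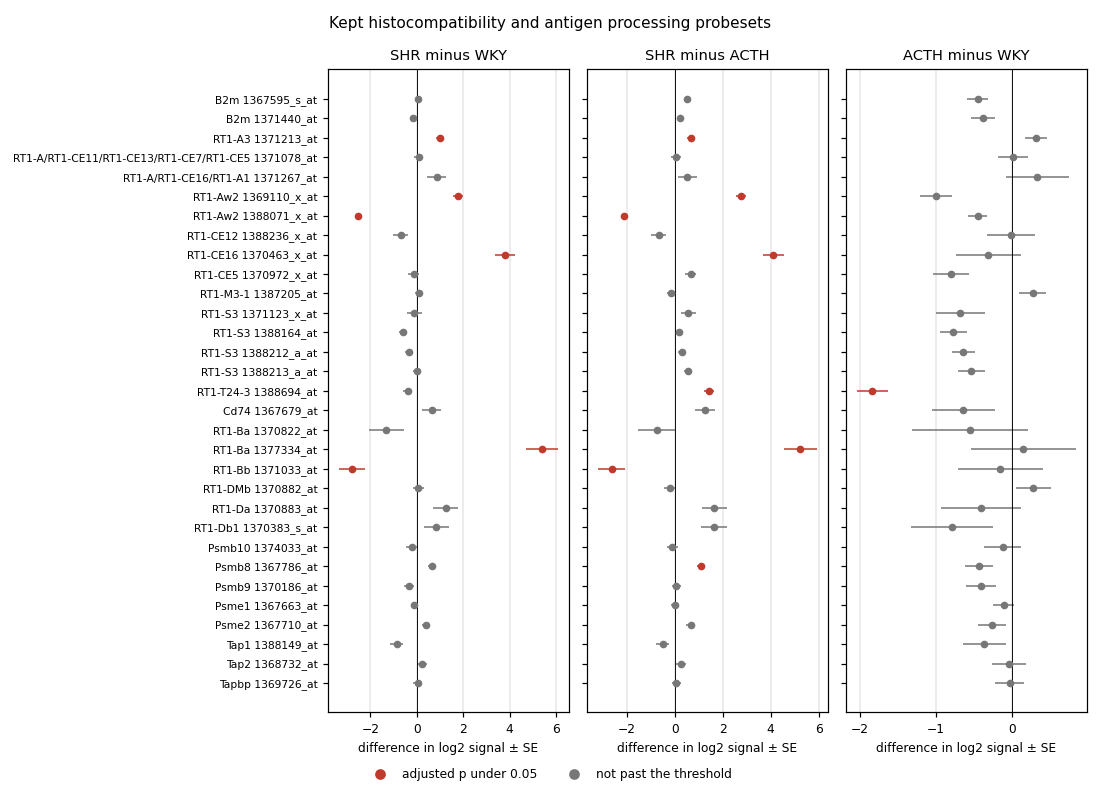
Differences in log2 signal (x axis, ± SE of the limma fit of 9 arrays) of the 31 kept probesets, with B2m and class I genes above, then class II genes and Cd74, then processing genes, for SHR minus WKY, SHR minus ACTH and ACTH minus WKY. Each panel has its own range; red points had an adjusted p under 0.05, and in the ACTH minus WKY panel 25 of the 31 points lie left of 0.

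The differences took 2 forms. A probeset was described as on/off in SHR where all 3 SHR arrays lay outside the range of all 6 arrays of the WKY strain and the SHR mean was at least 2 log2 units away from both the ACTH mean and the WKY mean. Of the 31 kept probesets 2 were on/off higher (background 0.0659%) and 2 on/off lower (background 0.154%), and 4 more lay above (background 4.78%) and 1 below (background 4.54%) all 6 WKY-strain arrays by less than that step. RT1-CE16 1370463_x_at, RT1-Ba 1377334_at and RT1-A3 1371213_at were kept for testing only through their SHR arrays, so a difference was a condition of their being tested. RT1-Bb 1371033_at reached the brightness of kept probesets only in ACTH and WKY, where it was high, and would have been kept whatever its SHR signals. The counts of calls and of SHR arrays beyond the WKY strain above are therefore no support. The 2 RT1-Aw2 probesets reached that brightness in all 3 groups. By the raw signals 5 of the 17 probesets that were not kept were on/off lower in SHR (0.251% of all probesets not kept) and none was on/off higher (0.222%). In all 5 the SHR signals were not above background, so the size of the step was not measured, and the folds from WKY that could be bounded were at least 1.07 to at least 3.15.

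Among class I heavy chains the steepest contrast was that of a probeset annotated to RT1-CE16, a class I gene of the C/E region. The probeset, 1370463_x_at, is of a kind that shares probes with transcripts of other genes, so its signal may come from several class I heavy chains. RT1-CE16 1370463_x_at gave 229, 282 and 163 units in SHR replicates 1 to 3, 14.8, 14.5 and 9.37 units in ACTH, and 32.9, 8.32 and 14.1 units in WKY. All SHR arrays were far above all WKY-strain arrays, of which only WKY replicate 1 exceeded 14.8 units. In the limma fit of the signals as deposited, SHR was higher than WKY (adjusted p = 0.00137) and higher than ACTH (adjusted p = 0.000801). As a bound that was not itself tested, the signal was at least 10.9-fold higher than in WKY and at least 14.3-fold higher than in ACTH. "At least" here means that the dimmer group was set to the lowest signal called present on each array, 11.7 to 17.1 units, where its own signal was lower, as on 2 of the 3 arrays of each of those groups. With the GAPDH ratio as a covariate the difference from WKY missed the threshold (adjusted p = 0.0539). Another probeset annotated to RT1-A, RT1-CE16 and RT1-A1 together (1371267_at) overlapped between all groups, at 72.0 to 108 units in SHR, 34.0 to 83.9 in ACTH and 25.1 to 72.4 in WKY.

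The study's tables name 3 probesets RT1-Aw2, a class I heavy chain, and these went in opposite directions in SHR. RT1-Aw2 1388071_x_at gave 313, 321 and 336 units in SHR, 1351, 1425 and 1373 units in ACTH, and 1930.3, 1760.3 and 1996 units in WKY. The 3 groups did not overlap, with SHR far below the others and ACTH between SHR and WKY. The difference in SHR was -2.55 ± 0.12 log2 units from WKY (adjusted p = 2.64e-06) and -2.10 ± 0.12 from ACTH (adjusted p = 1.92e-05). RT1-Aw2 1369110_x_at gave 423, 437 and 444 units in SHR, 51.0, 62.1 and 82.6 units in ACTH, and 161, 131 and 99.7 units in WKY. Again no groups overlapped, but SHR was now highest and ACTH lowest. SHR was higher than WKY by 1.76 ± 0.21 log2 units (adjusted p = 0.00203) and higher than ACTH by 2.76 ± 0.21 (adjusted p = 9.88e-05). The call against WKY was lost with the GAPDH covariate (0.053) and with the scan day block (0.101), and for 1388071_x_at no setting ended a call. The third probeset, 1388202_at, was dim and not kept, with 1.49, 7.01 and 3.91 units in SHR, 23.5, 36.2 and 26.6 in ACTH, and 12.9, 14.8 and 26.0 in WKY. The suffix _x_at marks a probeset that shares probes with transcripts of other genes, so the signal of 1388071_x_at and 1369110_x_at may come from several class I heavy chains. The same limit holds for the other _x_at probesets of class I genes described below.

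RT1-A3, another class I heavy chain of the A region, was dim but tight within groups. RT1-A3 1371213_at gave 75.9, 74.5 and 71.8 units in SHR, 42.1, 52.5 and 45.3 units in ACTH, and 32.3, 38.7 and 42.3 units in WKY. All SHR arrays were above all WKY-strain arrays, and ACTH and WKY overlapped. The difference in SHR was 0.98 ± 0.15 log2 units from WKY (adjusted p = 0.00708) and 0.67 ± 0.15 from ACTH (adjusted p = 0.0381). The call against ACTH was lost in 13 of the 20 settings that tested it, with adjusted p up to 0.324. Among these were the fit of all non-control probesets (0.154) and leaving out any one of the ACTH or SHR arrays or WKY replicate 2 (0.0502 to 0.173). The call against WKY was lost with all non-control probesets (0.054), the GAPDH covariate (0.109) and the scan day block (0.193). The other probesets of this gene, 1388256_at and 1370428_x_at (shared with RT1-A2), were at 26.6 units or less everywhere and overlapped in every comparison.

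RT1-CE5, a class I gene of the C/E region, had 5 probesets annotated to it alone, and the dim ones were near the bottom of the scale in SHR. RT1-CE5 1371209_at gave 0.405, 0.480 and 0.721 units in SHR, 9.64, 1.62 and 13.4 units in ACTH, and 44.6, 50.4 and 26.1 units in WKY. RT1-CE5 1388255_x_at gave 3.21, 1.95 and 0.775 units in SHR, 15.7, 17.4 and 8.85 units in ACTH, and 33.5, 39.3 and 27.5 units in WKY. In both probesets the WKY arrays lay above all others, and the SHR arrays of both and the ACTH arrays of 1371209_at were below the floor, where signals have no order. Neither was bright enough to be kept. In a fit of all 15866 non-control probesets both were called lower in SHR than in WKY, each with an adjusted p of 0.0206. That fit used the SHR signals below the floor as they were. The bounds, which were not tested, were at least 2.65-fold for 1371209_at and at least 2.26-fold for 1388255_x_at. The brightest probeset of the gene, 1370972_x_at, did not share this pattern, since SHR (139.6, 157 and 97.4 units) overlapped with WKY (138, 189.9 and 107 units). The remaining 2, 1371210_s_at and 1388254_a_at, stayed at 18.3 units or less on every array. In 1371210_s_at all SHR arrays lay below every WKY array, and below the floor.

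A probeset of RT1-N2, a class I gene outside the classical loci that the study's tables call RT1-N1, was likewise low in SHR, at 3.08, 6.16 and 0.672 units, against 17.0, 28.4 and 21.1 units in ACTH and 39.2, 46.0 and 54.8 units in WKY. It reached the brightness of kept probesets in WKY only. The groups did not overlap, and SHR was at least 3.15-fold below WKY, short of the threshold in the fit of all non-control probesets (adjusted p = 0.0628).

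**Figure D2:**
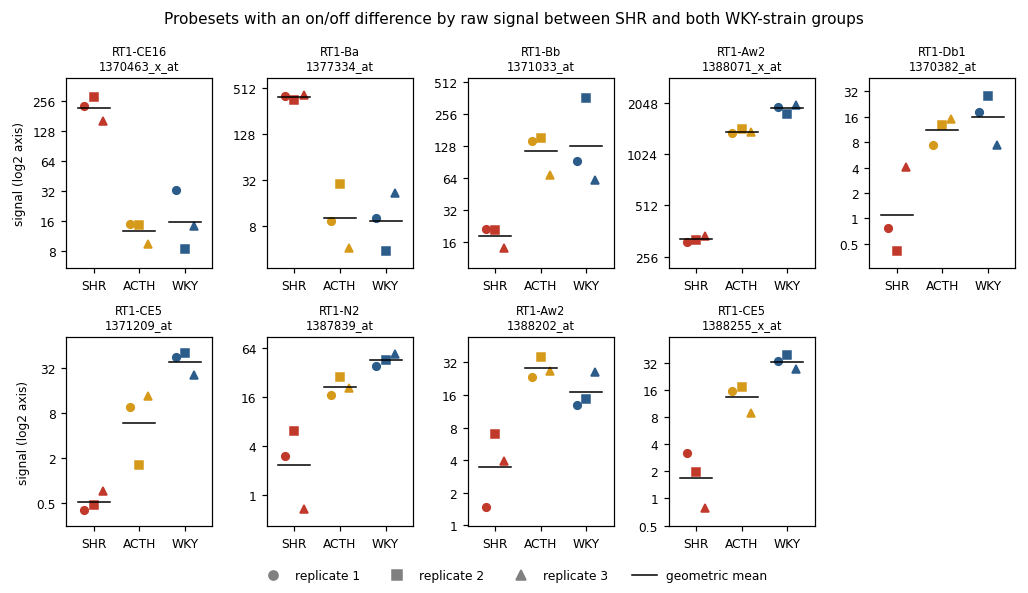
Signal on each array (log2 y axis, arbitrary units) of the 9 probesets with an on/off difference by raw signal between SHR and both WKY-strain groups, with replicates as symbols and the geometric mean as a line. RT1-CE16 and RT1-Ba 1377334_at were high in SHR and the other 7 low, of which only RT1-Bb 1371033_at and RT1-Aw2 1388071_x_at were bright enough to be kept. In the other 5 the SHR signals are not above background, and in RT1-Bb 1371033_at they had no present call, so the drawn step is not a measured fold. Nor is it in RT1-CE16 and RT1-Ba 1377334_at, where most WKY-strain arrays lay below the floor.

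In ACTH arteries 1 class I probeset was called and others lay below WKY without being called. In 10 of the 31 kept probesets all 3 ACTH arrays lay below all 3 WKY arrays, against 9.77% of all kept probesets, and in none did all ACTH arrays lie above (background 10.7%). These 10 came from 5 genes: B2m with 2 probesets, RT1-Aw2 with 2, RT1-S3 with 4, RT1-CE5 and RT1-T24-3. Probesets of one gene or with shared probes measured partly the same transcripts and were not independent counts, and other kept class I probesets differed by 0.31 (RT1-A3), 0.26 (RT1-M3-1) and -0.02 log2 units (RT1-CE12) with overlap. All but RT1-T24-3 missed the threshold, with adjusted p between 0.0542 and 0.424. Over all 31 kept probesets the median difference was -0.39 log2 units and 25 were below 0, against a median of 0.02 and 45.9% below 0 over all kept probesets. No ACTH array was scanned on a day with a WKY array, and the GAPDH ratio was lower on all 3 ACTH arrays than on all 3 WKY arrays. When scan day was a block, limma called none of the 31 in ACTH against WKY and 0 of all kept probesets, and 6 of the 31 were lower and 1 higher by the unadjusted p. When the GAPDH ratio was a covariate it called none of the 31 and 0 of all kept probesets either, and 9 of the 31 were lower and 1 higher by the unadjusted p, both at a limit of 0.05. The share of all kept probesets at that limit was not counted in these fits, so the unadjusted counts have no background.

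RT1-T24-3, a nonclassical class I gene, was the member called in ACTH. RT1-T24-3 1388694_at gave 451, 663 and 555 units in SHR, 206, 187 and 218 units in ACTH, and 571, 909 and 737 units in WKY. The ACTH arrays lay below all others and close together, whereas SHR and WKY overlapped. The signal in ACTH was lower than in WKY by 1.84 ± 0.20 on the log2 scale (difference -1.84, adjusted p = 0.00456), a ratio of 0.28. SHR was higher than ACTH by 1.43 ± 0.20 (adjusted p = 0.00452), and the difference between SHR and WKY was -0.40 ± 0.20 (adjusted p = 0.354). The call against WKY remained when any array was left out and was lost with all non-control probesets (adjusted p = 0.0871), once the GAPDH ratio (0.117) or the scan day (0.259) entered the fit, and without moderation of the variances (0.0683). Between SHR replicate 3 and the ACTH arrays, which were scanned on the same day, the difference was 1.45 log2 units, and the call against ACTH was lost with all non-control probesets (0.0511) and the scan day block (0.0913). The related gene RT1-T24-4 (1389734_x_at) was dim and not kept, at 28.3 to 51.8 units in SHR, 20.1 to 26.3 in ACTH and 19.1 to 33.5 in WKY, with the ACTH and WKY arrays overlapping.

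RT1-S3, another nonclassical class I gene, was measured by 4 kept probesets, and all of them had ACTH below WKY without overlap. RT1-S3 1388164_at gave 265, 203 and 222 units in SHR, 173, 232 and 203 units in ACTH, and 283, 396 and 364 units in WKY. Here SHR lay with ACTH, below WKY, and the differences from WKY were -0.59 ± 0.18 log2 units in SHR (adjusted p = 0.141) and -0.77 ± 0.18 in ACTH (adjusted p = 0.0828). RT1-S3 1388212_a_at gave 394, 328 and 317 units in SHR, 256, 310.1 and 282 units in ACTH, and 391, 481 and 455 units in WKY, a difference of -0.64 ± 0.15 between ACTH and WKY (adjusted p = 0.0872). RT1-S3 1388213_a_at and 1371123_x_at differed by -0.54 ± 0.18 and -0.68 ± 0.32 between ACTH and WKY (adjusted p = 0.232 and 0.424). In these 3, unlike 1388164_at, SHR overlapped with WKY. The call for 1388164_at was made in 3 alternative fits, the lowest adjusted p being 0.0239 with array weights.

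B2m, the light chain common to all class I molecules, was the brightest of these genes and its 2 probesets had the same order of groups in ACTH. B2m 1367595_s_at gave 2476, 2582 and 2512 units in SHR, 1746, 1872 and 1651 units in ACTH, and 2249, 2186 and 2842 units in WKY. B2m 1371440_at gave 2141, 1594 and 1748 units in SHR, 1670.3, 1393 and 1556 units in ACTH, and 1804, 2159 and 2082 units in WKY. In both, ACTH lay below WKY on every array and SHR overlapped with WKY. The differences between ACTH and WKY were -0.46 ± 0.14 (adjusted p = 0.188) and -0.39 ± 0.16 log2 units (adjusted p = 0.34), short of the threshold. SHR lay above ACTH without overlap only in 1367595_s_at, by 0.52 ± 0.14 (adjusted p = 0.0801).

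Of the probesets described above for SHR, RT1-Aw2 1369110_x_at and 1388071_x_at were also below WKY in ACTH on every array, by differences of -1.0025 ± 0.21 (adjusted p = 0.0542) and -0.45 ± 0.12 log2 units (adjusted p = 0.138). RT1-Aw2 1369110_x_at passed the threshold in 6 of the alternative fits, with adjusted p of 0.022 to 0.0498 in those. RT1-CE5 1370972_x_at gave 88.0, 75.6 and 78.5 units in ACTH, below every WKY array (difference -0.81 ± 0.23, adjusted p = 0.158). Of the 17 probesets not kept, 3 lay below WKY on all ACTH arrays (3.41% of all probesets not kept), namely RT1-CE5 1371209_at, RT1-CE5 1388255_x_at and RT1-N2. In 2, RT1-DMa and the probeset shared by RT1-M6-1 and RT1-M4, the ACTH arrays lay above WKY (8.51%). RT1-DMa 1370904_at, a chain of the molecule that exchanges class II peptides, gave 34.9, 50.4 and 41.4 units in SHR, 35.6, 58.7 and 40.2 units in ACTH, and 20.7, 34.6 and 20.1 units in WKY (adjusted p = 0.422 for ACTH against WKY in the fit of all non-control probesets).

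**Figure D3:**
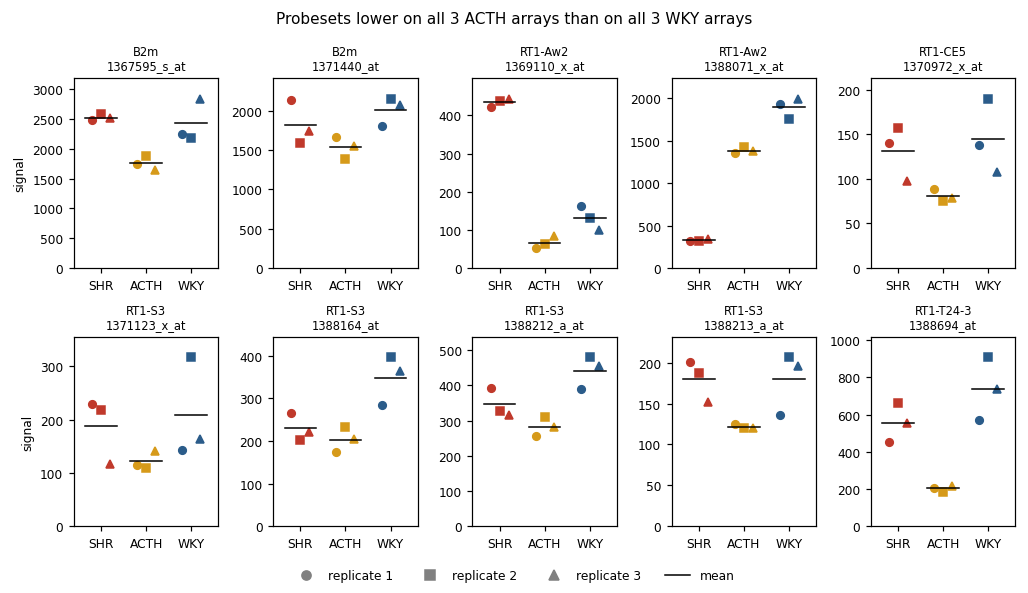
Signal on each array (y axis from 0, arbitrary units) of the 10 kept probesets in which all 3 ACTH arrays lay below all 3 WKY arrays, with replicates as symbols and the mean as a line. In RT1-T24-3, B2m 1367595_s_at, RT1-Aw2 1369110_x_at and RT1-CE5 the SHR arrays also lay above the ACTH arrays. So they did in RT1-S3 1388212_a_at and 1388213_a_at. In RT1-Aw2 1388071_x_at SHR lay below ACTH, and in RT1-S3 1388164_at and 1371123_x_at and B2m 1371440_at SHR overlapped with ACTH.

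Other class I probesets did not separate ACTH from WKY. RT1-M3-1 1387205_at, whose mouse counterpart presents formylated peptides, was at 194 to 233 units in SHR, 211 to 265 in ACTH and 158 to 232 in WKY. The probeset shared by RT1-A, RT1-CE11, RT1-CE13, RT1-CE7 and RT1-CE5 (1371078_at) was at 61.0 to 78.0 units in SHR, 58.2 to 70.9 in ACTH and 51.3 to 85.3 in WKY. RT1-CE12 1388236_x_at was at 142 to 227 units in SHR, 268 to 292 in ACTH and 158 to 417 in WKY, and only SHR and ACTH did not overlap (difference -0.67 ± 0.32, adjusted p = 0.313). RT1-A 1370429_at, RT1-CE10 1388203_x_at and RT1-N3 1370400_at were not kept, stayed at 46.5 units or less and overlapped in all 3 comparisons.

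Over the whole set, SHR lay above ACTH without overlap in 14 of the 31 kept probesets (background 11.7%) and below in 4 (background 13.3%), and against WKY SHR lay above in 6 (background 9.72%) and below in 6 (background 9.64%). The median difference over the 31 was 0.29 log2 units against ACTH and 0.03 against WKY, where all kept probesets had medians of -0.02 and -0.0046. Both counts of SHR above, and the medians, include RT1-CE16 1370463_x_at, RT1-Ba 1377334_at and RT1-A3 1371213_at. These were kept only through their high SHR arrays, so the counts and medians are no support.

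Class II chains showed an on/off difference in SHR at the B locus, in opposite directions for alpha and beta. RT1-Ba 1377334_at, the alpha chain, gave 403, 360.1 and 419 units in SHR, 9.43, 29.0 and 4.14 units in ACTH, and 10.2, 3.77 and 21.9 units in WKY. The SHR arrays were bright and close together, and every WKY-strain array was at 29.0 units or less. The signal in SHR was at least 22.6-fold higher than in WKY and at least 20.4-fold higher than in ACTH, bounds that were not themselves tested. In the limma fit of the signals as deposited SHR was called higher than WKY (adjusted p = 0.00279) and than ACTH (adjusted p = 0.00359). Each of these calls was lost in 3 settings, at adjusted p of 0.0661 to 0.0722 against WKY and 0.0511 to 0.0786 against ACTH. RT1-Bb 1371033_at, the beta chain, gave 21.4, 20.8 and 14.0 units in SHR, 143, 153 and 68.1 units in ACTH, and 92.4, 363 and 61.7 units in WKY. Here SHR was below every WKY-strain array, among which WKY replicate 2 was highest. The SHR signals were close above the floor of their own arrays but had no present call. The step was therefore only bounded, at least 6.93-fold from WKY and at least 6.21-fold from ACTH, bounds that were not themselves tested. By the signals as deposited the difference in SHR was -2.79 ± 0.56 log2 units from WKY (adjusted p = 0.0319 by limma) and -2.63 ± 0.56 from ACTH (adjusted p = 0.0302). The RT1-Bb call against WKY was lost in 9 of 21 alternative settings, with adjusted p up to 0.339, and that against ACTH in 8, with adjusted p up to 0.171. With all non-control probesets both were lost (0.191 against WKY and 0.171 against ACTH). The call against WKY was also lost when WKY replicate 1 (adjusted p = 0.0669), ACTH replicate 1 (0.0517) or any SHR array (0.0839 to 0.0876) was left out. That against ACTH was lost without ACTH replicate 1 (0.117), ACTH replicate 2 (0.0981) or any SHR array (0.0659 to 0.0996).

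The other probesets of the same chains did not repeat these differences. RT1-Ba 1370822_at gave 53.0, 7.96 and 54.7 units in SHR, 85.4, 72.5 and 17.9 units in ACTH, and 56.1, 114 and 55.9 units in WKY. It was slightly below WKY on all SHR arrays, opposite to 1377334_at (difference -1.32 ± 0.76, adjusted p = 0.42). RT1-Bb 1371065_at, dim and not kept, gave 15.03, 31.7 and 41.3 units in SHR, 14.6, 6.99 and 7.94 units in ACTH, and 5.22, 2.90 and 17.5 units in WKY, with SHR above every ACTH array and overlapping with WKY. RT1-Db1, the beta chain of the D locus, had a dim probeset, 1370382_at, with 0.768, 0.414 and 4.04 units in SHR, 7.44, 12.6 and 14.97 in ACTH, and 18.2, 28.5 and 7.46 in WKY, below the floor in SHR. Its bright probeset 1370383_s_at gave 216, 175 and 246 units in SHR, 90.4, 88.3 and 39.0 units in ACTH, and 73.5, 328 and 67.4 units in WKY. So by raw signals 2 probesets of one gene were ordered differently between SHR and the WKY strain for RT1-Aw2, RT1-Ba, RT1-Bb and RT1-Db1, a pattern chosen after the values were seen. The dim RT1-Db1 probeset was below the floor on all SHR arrays and the dim RT1-Bb probeset on all ACTH arrays. Signals below the floor have no order among themselves, so for these 2 probesets a difference could only be bounded. In the dim RT1-Bb probeset SHR was at least 1.77-fold above ACTH. In the dim RT1-Db1 probeset SHR was at least 1.07-fold below WKY, while the bright one overlapped between SHR and WKY. These bounds were not tested. In RT1-Ba 1370822_at 1 SHR array was below the floor. A change in the amount of transcript and a difference in how well the probes match a strain's allele cannot be told apart for a probeset that separates the strains.

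The brighter class II probesets and the invariant chain varied together with 1 array. Cd74 1367679_at gave 479, 527 and 479.9 units in SHR, 255, 249 and 135 units in ACTH, and 243, 690.0 and 194 units in WKY. RT1-Da 1370883_at, the alpha chain of the D locus, gave 1169, 572 and 578 units in SHR, 301, 259 and 163 units in ACTH, and 185, 812 and 197 units in WKY. In Cd74, RT1-Da, RT1-Db1 1370383_s_at and RT1-Bb 1371033_at WKY replicate 2 was well above the other WKY arrays. In Cd74, RT1-Da and RT1-Db1 1370383_s_at it reached or passed SHR arrays, so that SHR and WKY overlapped, while SHR was above ACTH on every array. The differences of SHR from ACTH were 1.27 ± 0.41, 1.64 ± 0.52 and 1.63 ± 0.54 log2 units for Cd74, RT1-Da and RT1-Db1, short of the threshold (adjusted p = 0.14, 0.132 and 0.148). Without WKY replicate 2, which entered those fits only through the estimate of spread, all 3 passed it (adjusted p = 0.022, 0.0218 and 0.0208). RT1-DMb 1370882_at, the partner of RT1-DMa, was at 81.1 to 114 units in SHR, 86.5 to 134 in ACTH and 70.7 to 118 in WKY.

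Macrophages are among the cells that carry class II, and their markers were also high on that array. Of 18 listed macrophage genes 13 were on the array, and these summed to 1988, 1689 and 1399 units in SHR, 2896, 3113 and 2078 in ACTH, and 637, 1847 and 808 in WKY. WKY replicate 2 was thus the WKY array with the highest macrophage sum, as for Cd74. All 3 ACTH sums were above every SHR and WKY sum, whereas Cd74 in ACTH was below SHR and overlapped with WKY. Of the 11 kept macrophage probesets 1 was called in ACTH against WKY (background 1.21%), the complement gene C1qc, which was higher by 2.34 log2 units (adjusted p = 0.0459). None was called in SHR against WKY. At an unadjusted p under 0.05 in limma, 9 of the 11 were higher and 0 lower in ACTH against WKY (background 6.86% and 5.59%). In SHR against WKY 3 were higher and 0 lower by that limit, for which the share of all kept probesets was not counted in this comparison. Against ACTH 1 was called in SHR, the lipopolysaccharide co-receptor Cd14, which was lower (difference -0.83, adjusted p = 0.0373). The 5 pan-leukocyte genes summed to 510 to 675 units in SHR, 636 to 709 in ACTH and 524 to 647 in WKY, mostly Cd48 (406 to 627 over all arrays), while Ptprc was at 20.0 or less. The 9 T cell genes summed to 134 to 174 units in SHR, 159 to 211 in ACTH and 109 to 173 in WKY, Lck being kept (30.8 to 57.2 over all arrays) and Cd3e at 14.6 or less. The 3 dendritic cell genes on the array summed to 112 to 134 units in SHR, 115 to 145 in ACTH and 44.8 to 109 in WKY, the kept one being Cd83 (differences from WKY of 1.17 in SHR, adjusted p = 0.0947, and 1.17 in ACTH, adjusted p = 0.13). Cd79b, the sole B cell gene of the list on the array, was at 21.0 or less. The part of macrophages in the class II signals was not tested, and in whole arteries fewer cells of a type and less RNA per cell cannot be told apart.

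**Figure D4:**
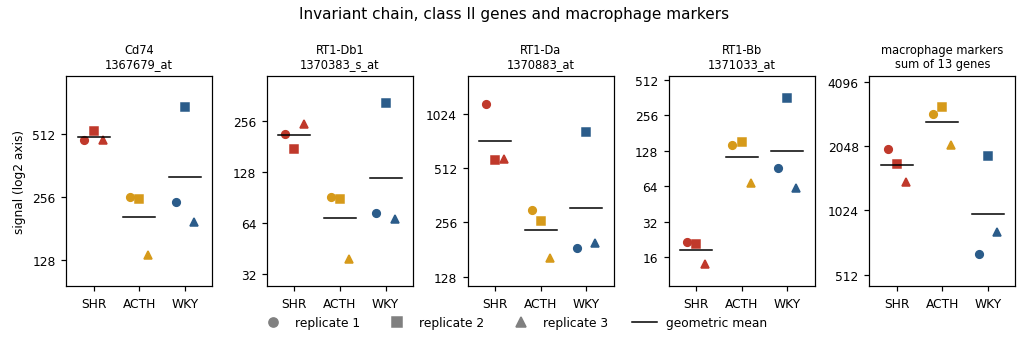
Signal on each array (log2 y axis, arbitrary units) of Cd74, RT1-Db1 1370383_s_at, RT1-Da and RT1-Bb 1371033_at, and the summed signal of 13 macrophage genes, with replicates as symbols and the geometric mean as a line. WKY replicate 2 (square) lies above the other 2 WKY arrays in all 5 panels, while the ACTH arrays are highest in the macrophage sum only.

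Of the genes that make and move class I peptides, Psmb8 alone was called. Psmb8 1367786_at, a catalytic subunit of the immunoproteasome, gave 491, 494 and 465 units in SHR, 233, 262 and 188 units in ACTH, and 242, 347 and 339 units in WKY. All SHR arrays were above all WKY-strain arrays, and ACTH overlapped with WKY through WKY replicate 1. SHR was higher than ACTH by 1.10 ± 0.18 log2 units (adjusted p = 0.00979), and its difference from WKY was 0.66 ± 0.18 (adjusted p = 0.0992). The call against ACTH was lost with all non-control probesets (adjusted p = 0.0788), with scan day as a block (0.148) and without moderation (0.0577). Between SHR replicate 3 and the ACTH arrays of the same day the difference was 1.04. Psme2 1367710_at, a subunit of the proteasome activator, had the same order with smaller steps, at 594, 493 and 458 units in SHR, 271, 388 and 319.9 in ACTH, and 336, 391.6 and 448 in WKY (0.67 ± 0.18 over ACTH, adjusted p = 0.0788).

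The remaining subunits did not follow Psmb8. Psmb9 1370186_at, whose gene lies next to Tap1 in the opposite orientation so that their promoters share 44 bases in GRCr8, gave 176, 242 and 217 units in SHR, 204, 253 and 154 in ACTH, and 246, 295 and 260.1 in WKY. SHR was slightly below WKY on every array, a difference of -0.34 ± 0.20 (adjusted p = 0.423). Psmb10 1374033_at, the third immune subunit, gave 259.6, 177 and 198 units in SHR, 230.0, 246 and 196 in ACTH, and 185, 220.0 and 355 in WKY. Psme1 1367663_at, the partner of Psme2, gave 607, 619 and 727 units in SHR, 627, 738 and 596 in ACTH, and 718, 702 and 695 in WKY. Psmb10 overlapped in every comparison, as did Psme1.

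Transport and loading genes were dimmer. Tap1 1388149_at gave 71.6, 48.5 and 54.2 units in SHR, 80.1, 71.7 and 93.1 in ACTH, and 76.5, 175 and 85.8 in WKY. SHR was below every WKY-strain array, if narrowly, and neither difference passed the threshold (-0.87 ± 0.29 from WKY, adjusted p = 0.174, and -0.50 ± 0.29 from ACTH, adjusted p = 0.414). The other Tap1 probeset, 1375379_at, was not kept and gave 20.8, 23.2 and 10.96 units in SHR, 14.5, 20.9 and 13.4 in ACTH, and 7.74, 13.0 and 18.9 in WKY. Tap2 1368732_at gave 88.0, 84.7 and 101 units in SHR, 90.1, 60.1 and 79.5 in ACTH, and 58.0, 101 and 81.1 in WKY. Tapbp 1369726_at gave 74.0, 109.6 and 80.2 units in SHR, 87.8, 95.7 and 67.1 in ACTH, and 75.1, 89.8 and 90.1 in WKY. Tap2 and Tapbp overlapped in every comparison, with differences within 0.27 log2 units of 0.

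**Figure D5:**
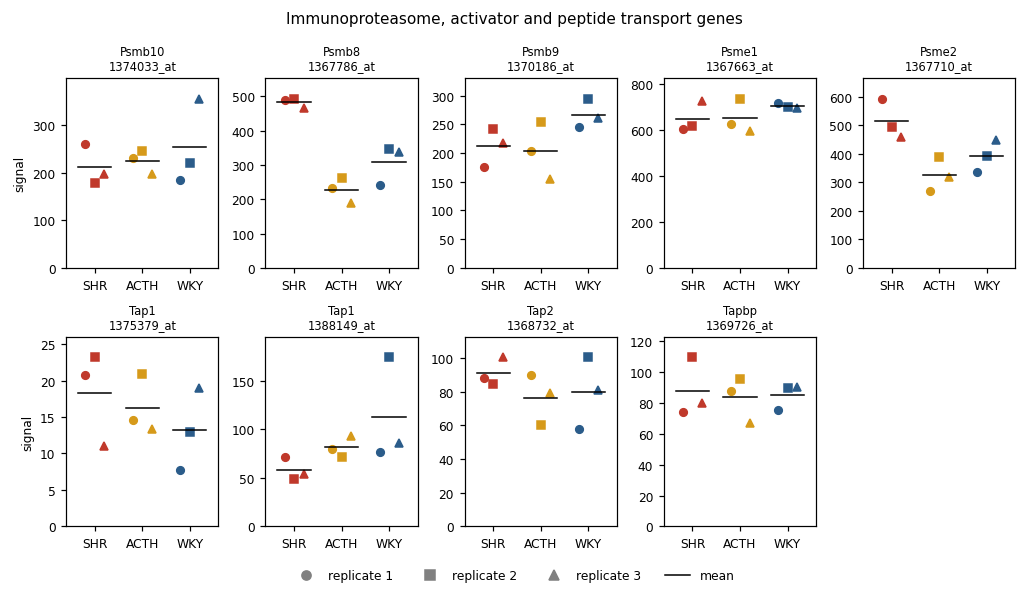
Signal on each array (y axis from 0, arbitrary units) of the 9 probesets of immunoproteasome, activator and peptide transport genes, with replicates as symbols and the mean as a line. In Psmb8, at 465 to 494 units, and in Psme2, at 458 to 594 units, the SHR arrays lie above all others, by smaller steps in Psme2. In Tap1 1388149_at they lie below all others.

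Among further regulators and processing genes outside the 48 probesets Lgmn alone was called. None of the 10 kept probesets of 9 regulators of MHC transcription and of the interferon-gamma pathway was called by limma in any comparison. In ACTH against WKY 4 had an unadjusted p under 0.05, 1 higher (background 6.86%) and 3 lower (background 5.59%). In each of the other comparisons 2 did, a limit for which the share of all kept probesets was not counted there. Of the 10 of class I folding and trimming in the endoplasmic reticulum and the 13 of the constitutive proteasome none was called either, and none of the 23 reached an unadjusted p under 0.05 in ACTH against WKY. The median differences of the regulators were -0.09 log2 units in SHR against WKY, -0.01 in ACTH against WKY and -0.03 in SHR against ACTH. Irf9, a transcription factor that acts at the interferon element, gave 117, 102 and 192 units in SHR, 68.7, 94.5 and 54.5 in ACTH, and 155, 238 and 155 in WKY, with ACTH below WKY on every array (difference -1.34 ± 0.28, adjusted p = 0.0537). Its partner Stat2 had differences of -0.68 ± 0.21 (1373670_at, adjusted p = 0.176) and -0.87 ± 0.21 (1389571_at, adjusted p = 0.0991) between ACTH and WKY. Irf1, another factor that binds the interferon element, was at 154 to 195 units in SHR, 165 to 238 in ACTH and 158 to 193 in WKY. The class II transactivator Ciita was dim on every array, at 33.4 units or less. Of 9 probesets of class II processing in endosomes 1 was called, the asparaginyl protease Lgmn, which was lower in SHR than in WKY (difference -0.94, adjusted p = 0.00629) and than in ACTH (difference -1.04, adjusted p = 0.00421). Of the 2 kept class I-like molecules encoded outside the complex, Fcgrt and Procr, neither was called or reached an unadjusted p under 0.05 in any comparison.

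For the SHR probesets every SHR array lay beyond all WKY-strain arrays. Differences between arrays scanned on the same day therefore had to keep the sign of the whole set, and only their size is of interest. On the day that held SHR replicates 1 and 2 and WKY replicate 2, SHR minus WKY was 1.71 log2 units for RT1-Aw2 1369110_x_at, 0.96 for RT1-A3 1371213_at, -2.47 for RT1-Aw2 1388071_x_at and -4.10 for RT1-Bb 1371033_at. On the day that held SHR replicate 3 and the ACTH arrays, SHR minus ACTH was 2.80, 0.63, -2.04 and -3.03 log2 units for the same probesets in that order. RT1-CE16 and RT1-Ba 1377334_at were below the floor on 2 of the 3 arrays of each WKY-strain group, so no such difference is given for them, but every SHR array was above every WKY-strain array of the same day. The SHR signals of RT1-Bb 1371033_at had no present call, so its values are those of the signals as deposited and not measured sizes. With 1 array on a side all of these are values without a test.

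Other genes of the same stretch of chromosome 20 gave a comparison by position. The RefSeq table places 364 genes that are not members between the outermost RT1 genes, and 46 of them had 48 kept probesets. Of these 48 none was called higher in SHR (background 0.967% against WKY and 1.57% against ACTH) and 1 was called lower (background 1.08% and 1.82%). This was the GABA-B receptor subunit Gabbr1 (1375720_at), which was below WKY (difference -0.79 ± 0.17, adjusted p = 0.0463) and below ACTH (difference -0.72 ± 0.17, adjusted p = 0.0482). At an unadjusted p under 0.05 in limma, 2 were higher and 6 lower in SHR against WKY, and 4 and 4 in SHR against ACTH. The share of all kept probesets at that limit was not counted for these 2 comparisons, so these counts have no background. In ACTH against WKY none of the 48 was called by limma. At an unadjusted p under 0.05, 4 were higher (background 6.86%) and 1 lower (background 5.59%). Their median differences were 0.01 log2 units in SHR against WKY, -0.01 in ACTH against WKY and -0.01 in SHR against ACTH.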

How the data were processed

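Members and gene lists were chosen with earlier results of these data known. The authors scanned 9 RAE230A arrays, and the deposited table holds 1 linear MAS5 signal intensity for each of 15923 probesets and array, scaled by the authors to a target of 150. No array was pooled or averaged in the table, all 9 columns were matched to samples by their accession headings, and no column was left over. Of the scan settings files only the scan day was read. The 57 control probesets were set aside, and the 9098 of 15866 others with the highest third-highest signal (at least 44.3 units) were kept, a number taken from the study's methods. Signals were tested as log2 values of the deposited intensities with limma 3.58.1 in R 4.3.3, in 1 fit of 3 groups (6 residual degrees of freedom), two-sided, with Benjamini-Hochberg adjustment over the 9098 probesets and a threshold of 0.05. The fit was checked on simulated data. The methods used analysis of variance with contrasts in place of moderated tests. Fold bounds set a dim group to the lowest signal on each array among probesets with a present call on all arrays of that group in the study's tables. A group was dim for a probeset where those tables gave it no present call or every array lay below that floor. Values per array were given for every member called in at least 1 comparison and for each gene without an RT1 name, and other members by range or where another probeset of the same gene was described. The comparisons of probesets of one gene in opposite directions, of WKY replicate 2 and of markers called in the lists were chosen after their values were seen. Alternatives covered the filter, between-array normalization, a pseudocount of 16, a variance trend, array weights, the GAPDH ratio, scan day, replicate number, unmoderated tests, pairwise fits and each array left out. Precision was limited by 3 arrays in each group, for which an exact permutation test could not give a p below 0.1. Gene names came from the platform annotation, and neighbours on chromosome 20 and promoters from RefSeq GRCr8. The genome build used by the authors is not given in the sources used here.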

Additional observations from a re-analysis of the deposited data

How the results depend on the processing

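Among the kept members no called difference, and no difference without overlap, changed direction in any of 21 alternative settings. This was largely fixed in advance. A difference without overlap cannot change direction when an array is left out, and several of the 12 other settings left the estimate unchanged. Of 15 called differences 4 were called in all the settings that tested them: RT1-Aw2 1388071_x_at in SHR against WKY and against ACTH, and RT1-Aw2 1369110_x_at and RT1-CE16 1370463_x_at in SHR against ACTH. Of 25 differences without overlap that were not called, 8 were called in at least 1 setting. In SHR against WKY, where 6 probesets were called, the number was 1 with the GAPDH ratio as a covariate and 3 with scan day as a block (with 34 and 26 calls over all kept probesets, against 186), and 5 to 8 when arrays were left out in turn. It was 8 without WKY replicate 2. In ACTH against WKY, where 1 was called, it was 0 with all non-control probesets, with the GAPDH covariate, with the scan day block and with unmoderated tests. It was 2 with quantile normalization, median centring or the pseudocount (112, 122 and 148 calls over all kept probesets, against 110). It was 3 with a mean signal of at least 100 (91 calls over all probesets tested) and 4 with a variance trend or array weights (161 and 201 calls). It was 1 whichever array was left out. The settings that gave 0 called 0 probesets of the whole array, or 5 with unmoderated tests, against 110. At an unadjusted p under 0.05 they had 7 to 13 members, a count not made over all probesets. In SHR against ACTH, where 8 were called, it was 3 with all non-control probesets and with the scan day block, 4 with unmoderated tests (52, 35 and 119 calls over all probesets tested, against 309), and 6 to 10 when arrays were left out. By the thresholds of the methods' own tests (0.02 for the F test and 0.015 for the contrast, unadjusted), 5 were higher and 2 lower in SHR against WKY, 0 and 6 in ACTH against WKY, and 7 and 2 in SHR against ACTH. The share of all kept probesets past these unadjusted thresholds was not counted, so these counts have no background. Replicate numbers did not pair the arrays, since deviations of arrays with the same number correlated at -0.07 to 0.13. With the replicate number as a block the counts were 6 in SHR against WKY, 1 in ACTH against WKY and 7 in SHR against ACTH (158, 97 and 261 calls over all kept probesets). The scan day block left 3 residual degrees of freedom and linked ACTH to WKY only through SHR arrays, and the cause of the other changes was not tested. Members at the bottom of the scale, such as RT1-CE5 1371209_at at 0.405 to 0.721 units in SHR, were below the range in which a fold could be measured.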
